A study of Homo sapiens with 24 samples.

Results

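T-47D cells, an established estrogen receptor-positive line of luminal breast cancer, were compared as clones that carried the Y537S substitution in ESR1 or only the WT gene. The comparison used 4 of the 24 RNA-seq libraries of the study: Y537S clone 1, Y537S clone 2, WT clone D1 and WT clone D4, each transfected with the mimic negative control and joined on gene symbol. Of the 26364 genes in the deposited tables, 15106 passed the filter on low counts and were tested. By the study's methods the mutation is heterozygous at the endogenous locus, every library comes from a clonal line, and the clones of a genotype stand in as biological duplicates. All 4 cultures shared hormone-deprived medium, a 10 nM dose of the control oligonucleotide and a harvest 24 h after transfection, so the comparison addressed what the mutation does without ligand. A difference between genotypes is here also a difference between the clones that carry them, and these cannot be told apart.

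The estrogen receptor (ER), encoded by ESR1, is a transcription factor that estradiol normally switches on. Estradiol binding folds a helix of the ligand-binding domain into a position that recruits coactivators, and the receptor then drives genes for luminal identity and for entry into the cell cycle. Substitutions at Tyr537 and Asp538 hold that helix in its active position without hormone, arise in metastatic disease under estrogen deprivation, and are known for ligand-independent growth. Hormone-deprived WT cells of this kind cycle slowly, which sets the level against which the mutant clones are read.

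The affected codon is shown first, since the whole comparison turns on it. ESR1 lies on the plus strand of chromosome 6 at chr6:151977826-152450754 (hg19) and a stretch of an exon of its ligand-binding domain at chr6:152419901-152419948 codes for the residues around Tyr537. The reference bases of that stretch are printed with the codon of Tyr537 in capitals.
ESR1: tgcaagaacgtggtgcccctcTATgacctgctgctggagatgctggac

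ESR1 mRNA itself was higher in the mutant clones. Its level, in CPM (counts scaled to a common library size and composition), was 257 in Y537S clone 1, 172 in Y537S clone 2, 117 in WT clone D1 and 116 in WT clone D4. The genotypes did not overlap, and the 2 mutant clones were further apart than the WT clones. Separation of this kind was common: of all 15106 genes tested, 5229 were higher in both Y537S libraries than in both WT libraries. The log2 fold change was 0.88 ± 0.17 (SE, n = 2 per genotype) with an adjusted p of 0.0091 from the quasi-likelihood test of edgeR, adjusted after Benjamini and Hochberg, which stands behind every adjusted p given here unless another tool is named. A call is an adjusted p under 0.05.

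The libraries held 33451179 to 41382707 counts, and their 10 most abundant genes took 4.45% to 5.78% of them. Y537S clones differed from each other by a median of 0.18 on the log2 scale and WT clones by 0.13, against 0.30 to 0.39 between a Y537S and a WT library. Clone pairs varied 31.9 times (Y537S) and 10.7 times (WT) as much as counting noise, so the libraries of a genotype are not copies of each other. Luminal markers were abundant in all 4 libraries, with the keratin KRT8 at 2225 to 3014 CPM, GATA3 at 1519 to 1558 CPM and EPCAM at 182 to 202 CPM. Of 12 luminal markers 3 were higher (ESR1, KRT8 and TFF3) and 4 lower, with a median log2 fold change of 0.04. KRT8 lost its call without WT clone D1 or D4, where its log2 fold change was 0.331 and 0.375. Among the lower markers, KRT7 was at 146 and 141 CPM in Y537S and 198 and 209 CPM in WT (-0.50 ± 0.076). MUC1 was at 890 and 916 CPM against 1199 and 1327 CPM (-0.48 ± 0.083). Its call was lost without WT clone D4, where its log2 fold change was -0.415. CDH1, whose lost calls are given below, was lower too. Summed levels of the other cell types' markers were 12.0 to 16.4 CPM in Y537S and 19.4 to 20.4 CPM in WT for 9 basal markers, 59.2 to 69.5 against 52.8 to 55.0 CPM for 9 fibroblast markers, 3.36 to 3.43 against 4.05 to 4.49 CPM for 10 leukocyte markers, and 12.9 to 18.8 against 14.8 to 16.0 CPM for 7 endothelial markers. The defining genes KRT14, COL1A2, PTPRC and CDH5 were at or near 0, and COL1A1 and ENG made up most of the fibroblast and endothelial sums. Of the 4 basal, 3 fibroblast, 2 leukocyte and 1 endothelial markers that passed the filter, 1 was called, TP63, a transcription factor of basal cells, at 0.21 and 0.48 CPM in Y537S against 7.34 and 3.60 CPM in WT (log2 fold change -3.97 ± 0.53, adjusted p = 0.002), and its value was -3.36 without WT clone D1 and -4.69 without Y537S clone 2.

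Y537S and WT clones differed in 4378 of the 15106 genes tested, 29.0% of them. Levels were higher in Y537S for 2464 genes (16.3%) and lower for 1914 (12.7%), while the median log2 fold change over all tested genes was -0.003. A change of at least 1 on the log2 scale was seen in 1390 called genes, 889 higher and 501 lower. In a 2 against 2 design an exact permutation test cannot go below p = 0.33, so single calls rest on edgeR's pooling of the spread across genes. Counts of calls depended on the libraries of both genotypes. They fell when either WT clone was left out and rose when either Y537S clone was, as ranged in a closing section. Without a WT clone the spread comes from the Y537S pair, which varied more (31.9 times counting noise against 10.7 times for WT).

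The most uniform difference was in the cell cycle. All 50 genes of the mitosis list (kinases, motors, kinetochore and condensin genes) and all 42 of the DNA replication list were called higher in Y537S, against a background of 16.3%. The gene lists here and below were chosen with earlier results of these data known, so their counts describe and do not test. The median log2 fold change was 1.81 for mitosis, with a range of 1.26 to 2.34, and 1.17 for replication, with a range of 0.48 to 1.94. Medians were close in both clones: relative to the WT mean, mitosis genes stood at 1.93 in clone 1 and 1.74 in clone 2, and replication genes at 1.21 and 1.12. Summed over the list, mitosis genes took 12914 and 11009 CPM in the Y537S libraries and 3427 to 3543 CPM in the WT libraries. A rise of transcripts per cell and a larger share of cells in those phases cannot be told apart in bulk RNA.

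CDK1, the kinase that drives entry into mitosis (chr10:62538089-62554610, hg19), was at 327 and 311 CPM in Y537S clones 1 and 2 and at 95.7 and 88.6 CPM in WT clones D1 and D4. Both mutant clones lay above both WT clones by more than the clones of a genotype differed. Its log2 fold change was 1.79 ± 0.083 (adjusted p = 9.1e-05). The kinesin KIF14, which acts in the last step of cell division, was at 103 and 102 CPM in Y537S and 25.2 and 25.7 CPM in WT (2.01 ± 0.090, adjusted p = 9.1e-05). TOP2A, the topoisomerase that untangles replicated DNA, was at 893 and 891 CPM against 217 and 223 CPM (2.02 ± 0.076, adjusted p = 9.1e-05). CENPE, a kinetochore motor, was at 163 and 175 CPM against 50.4 and 48.8 CPM (1.77 ± 0.081, adjusted p = 9.1e-05). In each of these genes the clones of a genotype lay close to each other. The genotypes did not overlap, as was so in the higher direction for 5229 of all 15106 genes tested. Among members chosen after their values were seen, CCNB2, a mitotic cyclin, had the highest fold change of the list, with 173 and 132 CPM against 28.1 and 32.1 CPM (2.34 ± 0.15). CCNB2 lies on chromosome 15, where the median of all tested genes was 0.46. PLK1, a mitotic kinase, stood at 201 and 174 CPM against 38.3 and 42.1 CPM, and MKI67, the proliferation antigen Ki-67, at 1007 and 784 CPM against 190 and 205 CPM. FOXM1, a transcription factor of the G2/M program, was at 261 and 184 CPM against 51.4 and 55.3 CPM.

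Among replication genes, RRM2, a subunit of the enzyme that makes deoxyribonucleotides, was at 444 and 394 CPM in Y537S and 115 and 125 CPM in WT (1.80 ± 0.094, adjusted p = 9.3e-05). MCM10, a helicase factor at the origin, was at 101 and 104 CPM against 35.3 and 35.9 CPM (1.52 ± 0.087, adjusted p = 0.00011). CLSPN, the adaptor claspin of the replication checkpoint, was at 65.0 and 62.0 CPM against 20.6 and 20.7 CPM (1.62 ± 0.10, adjusted p = 0.00012). None of these groups overlapped, which the choice of these genes by smallest p made likely. Of genes picked after their values were seen, the sliding clamp PCNA rose by less (1.13 ± 0.075), and TYMS, which makes thymidylate, by more (1.94 ± 0.15).

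Regulators of the G1 phase, the gap before replication, were mixed. Of 24 tested, 14 were higher (58.3%) and 2 lower (8.33%) in Y537S, beside 16.3% and 12.7% of all genes, with a median log2 fold change of 0.55. E2F7, a repressor of the E2F family, was at 68.6 and 63.0 CPM in Y537S and 19.0 and 18.4 CPM in WT (1.81 ± 0.11, adjusted p = 0.00012). CCNE2, a cyclin of the G1/S step, was at 89.0 and 87.0 CPM against 45.4 and 43.8 CPM (0.98 ± 0.088, adjusted p = 4.0e-04), and the activator E2F1 was at 95.7 and 95.3 CPM against 50.9 and 52.3 CPM (0.89 ± 0.085). The 2 lower genes were CDKN2B and CCNG2. CDKN2B, an inhibitor of CDK4 and CDK6, was at 30.0 and 33.4 CPM in Y537S and 95.5 and 104 CPM in WT (-1.65 ± 0.10, adjusted p = 0.00012). CCNG2, a cyclin linked to arrest, was at 74.2 and 102 CPM against 173 and 175 CPM (-0.98 ± 0.14, adjusted p = 0.0024). CDKN2C, also an inhibitor of CDK4 and CDK6 and named here after its values were seen, went the other way, at 68.0 and 47.9 CPM against 14.5 and 17.8 CPM (1.85 ± 0.19). CCND1, the cyclin that E2-bound ER is known to raise, stood at 208 and 236 CPM in Y537S and 242 and 247 CPM in WT and was not called (-0.14 ± 0.083, adjusted p = 0.25), though it passed without Y537S clone 2 (adjusted p = 0.044).

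**Figure D1:**
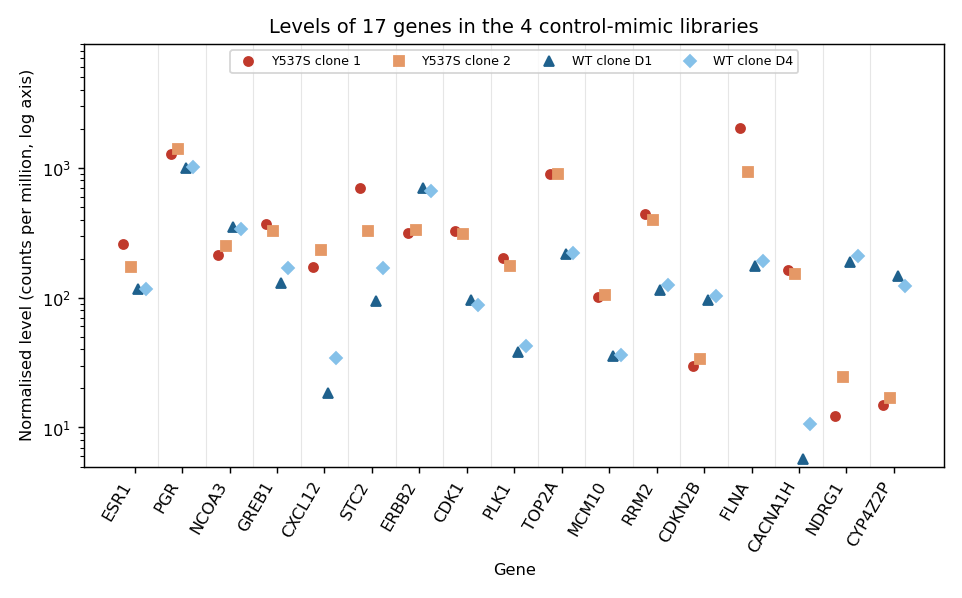
Levels of single genes in CPM on a log axis, with 1 point for each of the 4 control-mimic libraries and no error bars. CDK1, PLK1, TOP2A, MCM10 and RRM2 lie higher in both Y537S clones than in both WT clones, while ERBB2, CDKN2B, NDRG1 and CYP4Z2P lie lower.

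The promoters of these lists were read next, because their members moved together. RefSeq promoters (GRCh38.p14, 250 bases before to 50 after the start) were found for 11364 of the tested genes, among them 44 mitosis and 36 replication genes. The cell cycle genes homology region (CHR) is an element that mitotic promoters share, and it was searched as TTTGAA or TTCGAA on both strands. It was held by 35 of 44 mitosis promoters (79.5%) and 3 of 36 replication promoters (8.33%), against 11.3% of promoters of tested genes and 16.6% of all 27305 promoters. An E2F site, searched as TTTCGCGC or TTTGGCGC, was held by 10 of 36 replication promoters (27.8%) and 3 of 44 mitosis promoters (6.82%), against 1.99% of promoters of tested genes and 1.18% of all. CCAAT was in 33 mitosis and 20 replication promoters (75% and 55.6%, against 36.8% and 35.7%). The palindromic estrogen response element, GGTCA and TGACC with 3 free bases between them, was in none of the promoters of called genes, and in 0.0659% of all promoters, which says only that these letters are not in those windows. CHR letters stood in 14.7% of promoters of all genes higher in Y537S and in 11.6% of those lower. No search word holds another. Stretches of 60 bases upstream of the start are printed 5′ to 3′ along the gene for 4 mitosis and 2 replication genes that rose, with the CHR letters (the first 4) or the E2F letters (the last 2) in capitals. They lie at chr17:40418015-40418074 (minus strand) for TOP2A, chr10:60778143-60778202 (plus) for CDK1, chr16:23678829-23678888 (plus) for PLK1, chr10:92593070-92593129 (plus) for KIF11, chr12:132687343-132687402 (minus) for POLE and chr11:65261882-65261941 (plus) for POLA2, all in GRCh38.p14.
TOP2A: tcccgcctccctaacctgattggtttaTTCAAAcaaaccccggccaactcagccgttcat
CDK1: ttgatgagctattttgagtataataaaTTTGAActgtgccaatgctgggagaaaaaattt
PLK1: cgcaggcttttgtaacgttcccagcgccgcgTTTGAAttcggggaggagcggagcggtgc
KIF11: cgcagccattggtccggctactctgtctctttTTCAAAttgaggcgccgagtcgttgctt
POLE: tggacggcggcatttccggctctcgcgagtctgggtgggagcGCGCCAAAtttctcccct
POLA2: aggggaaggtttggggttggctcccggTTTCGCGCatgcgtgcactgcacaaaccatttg

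ER, other hormone receptors and the cofactors of ER moved both ways. Of 24 tested genes 4 were higher (16.7%) and 7 lower (29.2%), beside 16.3% and 12.7% of all genes, and the median log2 fold change was -0.04. PGR, the progesterone receptor and a classic ER target, was at 1285 and 1402 CPM in Y537S and 1000 and 1022 CPM in WT (0.41 ± 0.080, adjusted p = 0.0087), and its call was lost without WT clone D1 or D4 (adjusted p = 0.10 and 0.08). RARA, a retinoic acid receptor, and the mediator subunit MED1 were higher by 0.35 and 0.25, and those calls were lost too without WT clone D1 or D4 (adjusted p = 0.24 and 0.078 for RARA, 0.27 and 0.22 for MED1). Among the lower genes were TFAP2A, a luminal transcription factor, at 279 and 290 CPM against 425 and 422 CPM (-0.57 ± 0.072, adjusted p = 0.0016), and SPDEF, another, at 188 and 183 CPM against 282 and 306 CPM (-0.66 ± 0.078, adjusted p = 0.0012). NCOA3, a coactivator that ER recruits, was at 213 and 248 CPM against 349 and 339 CPM (-0.57 ± 0.090, adjusted p = 0.0037). XBP1, a transcription factor of secretory cells, had a log2 fold change of -0.28, and its call was lost without WT clone D1 or D4 (adjusted p = 0.16 and 0.23). FOXA1 and GATA3, the pioneer factors that open chromatin for ER, were not called, with log2 fold changes of -0.24 ± 0.093 and 0.00 ± 0.075.

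Known estrogen-induced genes were higher more often than lower. Of 50 tested, 23 were higher (46%) and 8 lower (16%), beside 16.3% and 12.7% of all genes tested, and the median log2 fold change was 0.35. Outside the chromosome regions described below, 20 of 46 were higher and 8 lower. OLFM1, which encodes a secreted olfactomedin, was at 146 and 165 CPM in Y537S and 14.2 and 19.4 CPM in WT (3.21 ± 0.16, adjusted p = 9.1e-05). MYBL1, a transcription factor of the MYB family, was at 154 and 125 CPM against 39.4 and 44.6 CPM (1.73 ± 0.13, adjusted p = 1.9e-04). FKBP4, a cochaperone of steroid receptors, was at 1013 and 983 CPM against 471 and 524 CPM (1.01 ± 0.085, adjusted p = 3.1e-04). Each of these 3 genes was separated between the genotypes in all 4 libraries, which their choice by smallest p made likely. CXCL12, a chemokine that estrogen raises in breast cancer cells, was at 172 and 232 CPM against 18.6 and 34.2 CPM (2.94 ± 0.27, adjusted p = 4.3e-04).

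Further estrogen-induced genes were named after their values were seen. GREB1, a chromatin-bound ER cofactor and one of its most responsive targets, was at 372 and 324 CPM in Y537S and 129 and 170 CPM in WT (1.23 ± 0.14). The amino acid transporter SLC7A5 was at 1247 and 883 CPM against 387 and 411 CPM (1.42 ± 0.16), CELSR2 at 114 and 109 CPM against 57.5 and 57.8 CPM (0.96 ± 0.083), and the ubiquitin ligase SIAH2 at 120 and 110 CPM against 58.9 and 63.8 CPM (0.91 ± 0.093). STC2, a secreted glycoprotein, was at 703 CPM in clone 1 and 326 CPM in clone 2, against 94.8 and 168 CPM (1.98 ± 0.38), and at 1.31 on the log2 scale without clone 1. TFF1, the textbook ER target, was nearly silent everywhere, at 3.54 and 0.99 CPM in Y537S and 0 and 0.15 CPM in WT. It was called (adjusted p = 0.013), but its fitted log2 fold change rests on few WT reads and ran from 3.71 without Y537S clone 1 to 9.46 without WT clone D4. The lower estrogen-induced members with the smallest p were RHOBTB3, KDM4B and ANXA9. RHOBTB3, an atypical GTPase gene, was at 56.1 and 66.8 CPM against 310 and 208 CPM (-2.08 ± 0.19, adjusted p = 3.8e-04). KDM4B, a histone demethylase that acts with ER, was at 153 and 162 CPM against 247 and 256 CPM (-0.67 ± 0.074), and ANXA9, an annexin, at 91.1 and 105 CPM against 148 and 170 CPM (-0.70 ± 0.10).

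**Figure D2:**
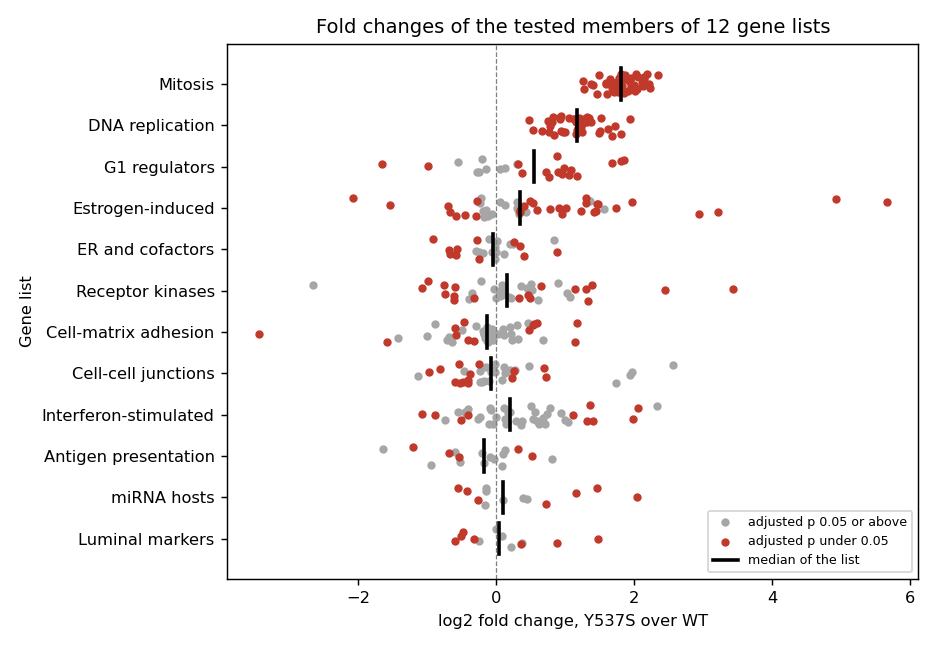
log2 fold changes (Y537S over WT) of the tested members of 12 gene lists, with 1 point a gene, red where the adjusted p was under 0.05, and a black bar at each list's median. Every point of the mitosis and DNA replication lists lies above 0 and is red, with medians of 1.81 and 1.17, while the other lists hold points on both sides of 0.

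Receptor kinases and their signaling genes held calls in both directions. Of 40 tested, 10 were higher (25%) and 8 lower (20%), beside 16.3% and 12.7% of all genes, with a median of 0.15, and 9 and 8 of them lay outside the chromosome regions described below. ERBB2, the HER2 receptor, was at 315 and 329 CPM in Y537S and 694 and 668 CPM in WT (-1.08 ± 0.075, adjusted p = 1.6e-04). Its partners ERBB3 and ERBB4, named after their values were seen, were lower as well, at 500 and 657 CPM against 963 and 970 CPM (-0.74 ± 0.12), and at 44.6 and 48.1 CPM against 87.6 and 69.5 CPM (-0.76 ± 0.13). In the other direction, the fibroblast growth factor receptor FGFR3 was at 47.4 and 41.3 CPM against 20.5 and 19.8 CPM (1.14 ± 0.12, adjusted p = 7.1e-04). IGF1R, the receptor of insulin-like growth factors, was at 247 and 146 CPM against 78.1 and 78.2 CPM (1.34 ± 0.22, adjusted p = 0.0044). DUSP4 and DUSP5 are phosphatases that switch off MAP kinases, and they moved apart: DUSP4 was at 30.4 and 24.2 CPM against 9.03 and 11.9 CPM (1.39 ± 0.19), and DUSP5 at 30.6 and 30.5 CPM against 47.6 and 45.6 CPM (-0.61 ± 0.098). IGFBP5, which binds the same growth factors, was lower, at 2795 and 2693 CPM against 4176 and 4186 CPM (-0.61 ± 0.080). The catalytic subunit PIK3CB was at 172 and 162 CPM against 136 and 128 CPM (0.34 ± 0.080, adjusted p = 0.019) and the kinase PRKD3 at 61.0 and 46.6 CPM against 34.2 and 34.3 CPM (0.65 ± 0.14, adjusted p = 0.014), and both calls were lost without WT clone D1 or D4 (adjusted p = 0.10 and 0.18 for PIK3CB, 0.067 and 0.064 for PRKD3). The regulatory subunit PIK3R1, named after its values were seen, was at 137 and 265 CPM against 401 and 396 CPM (-0.99 ± 0.25, adjusted p = 0.025), a call lost without WT clone D1 or D4 (0.061 and 0.057) and by DESeq2 (0.086). Of the genes the study singled out for its RNA-seq, TUSC2 (34.4 and 38.3 CPM against 39.1 and 41.4 CPM) and PLAGL2 (107 and 98.2 CPM against 122 and 120 CPM) were not called, with log2 fold changes of -0.15 ± 0.10 and -0.23 ± 0.083. PLAGL2 did pass without Y537S clone 1 (adjusted p = 0.021).

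Genes of epithelial junctions were called lower more often than higher, though most were not called. Of 37 tested cell-cell junction genes, 4 were higher and 10 lower (27%, beside 12.7% of all genes), with a median of -0.07 and a summed level of 10219 and 10541 CPM in Y537S against 13226 to 14181 CPM in WT. Outside the chromosome regions described below, 2 of 35 were higher and 10 lower. The list median was -0.058 under the miR-301b mimic and 0.125 under the miR-331 mimic. CLDN1, a tight junction strand protein, was at 1327 and 1111 CPM against 2048 and 2225 CPM (-0.81 ± 0.11, adjusted p = 0.002). PVRL4, the adhesion receptor nectin-4, was at 124 and 149 CPM against 276 and 262 CPM (-0.98 ± 0.099, adjusted p = 6.3e-04), and CLDN4, another claudin, at 270 and 269 CPM against 354 and 361 CPM (-0.41 ± 0.072, adjusted p = 0.006). CDH1, the E-cadherin of adherens junctions, was at 951 and 1415 CPM against 1811 and 1747 CPM (-0.59 ± 0.16, adjusted p = 0.034). JUP and DSP, which anchor desmosomes and were named after their values were seen, had log2 fold changes of -0.48 ± 0.099 and -0.52 ± 0.11. Without WT clone D1 or D4 the calls of CLDN4 (adjusted p = 0.059 and 0.066), CDH1 (0.12 and 0.086, and 0.097 by DESeq2 on all libraries) and JUP (0.061 and 0.077) were lost, and that of DSP without WT clone D4 (0.12). Among the higher members the scaffold TJP1 was at 199 and 160 CPM against 109 and 110 CPM (0.72 ± 0.11), and it lies on chromosome 15. The desmosomal cadherin DSG2 was higher by 0.26 ± 0.077 (adjusted p = 0.043) and lost its call without WT clone D1 or D4 or Y537S clone 2 or with the GC correction (0.057 to 0.32).

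Cell-matrix adhesion genes were near the background, with 6 higher and 7 lower of 45 tested and a median of -0.13. Basement membrane collagens stood out within them. COL4A6, a chain of type IV collagen, was at 2.20 and 4.83 CPM in Y537S and 27.7 and 48.7 CPM in WT (-3.44 ± 0.39, adjusted p = 0.001), and at -4.10 without Y537S clone 2. COL4A5, its neighbor on the X chromosome, was at 43.1 and 55.5 CPM against 138 and 157 CPM (-1.58 ± 0.13, adjusted p = 2.8e-04). PXN, the focal adhesion adaptor paxillin, was at 345 and 348 CPM against 478 and 476 CPM (-0.46 ± 0.072). The laminin receptor subunit ITGB4 was higher, at 249 and 231 CPM against 158 and 173 CPM (0.53 ± 0.085, adjusted p = 0.004), as were LAMA3, a laminin chain, by 0.48 ± 0.093 and ITGA5, a fibronectin receptor subunit, by 1.18 ± 0.24. Without WT clone D1, adjusted p-values were 0.051 for ITGB4, 0.074 for LAMA3 and 0.074 for ITGA5, and LAMA3 was at 0.093 without WT clone D4.

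Interferon-stimulated genes were called no more often than genes at large. Of 45 tested, 6 were higher and 4 lower, beside 16.3% and 12.7% of all genes, with a median of 0.20 that was 0.15 in clone 1 and 0.47 in clone 2. OAS3, an antiviral sensor enzyme, was at 206 and 170 CPM in Y537S and 40.9 and 54.2 CPM in WT (1.98 ± 0.15, adjusted p = 2.2e-04). LGALS3BP, a secreted lectin-binding protein, was at 15.2 and 14.2 CPM against 5.03 and 6.08 CPM (1.40 ± 0.18), and IFITM2, a membrane restriction factor, at 13.7 and 11.1 CPM against 4.67 and 5.03 CPM (1.35 ± 0.19). STAT2, the transcription factor of type I interferon signaling, was lower, at 104 and 112 CPM against 153 and 155 CPM (-0.51 ± 0.076, adjusted p = 0.0031). PARP14 and PARP9, ADP-ribosyltransferases that sit side by side, were lower by values of -1.07 ± 0.17 and -0.89 ± 0.16. Of 17 antigen presentation genes (11.8% higher and 17.6% lower, near the shares of all genes) 2 were higher, HLA-B (0.52 ± 0.12) and B2M (0.31 ± 0.072), and 3 lower, CALR (-0.68 ± 0.088), TAPBP (-1.20 ± 0.19) and ERAP1 (-0.54 ± 0.15). B2M lies on chromosome 15, where the median of all tested genes was 0.46. Outside the chromosome regions described below, 1 of 15 was higher and 3 lower. HLA-B reads can be split with its close paralogs, and calls were lost for HLA-B without WT clone D1 (adjusted p = 0.14) and for B2M (0.15 and 0.15) and ERAP1 (0.11 and 0.13) without WT clone D1 or D4.

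The largest rises among genes whose mean reached 3 log2 CPM and whose genotypes did not overlap began with genes that were all but silent in WT cells. TMTC1, a mannosyltransferase of the endoplasmic reticulum, was at 17.7 and 39.5 CPM in Y537S and 0.05 and 0.24 CPM in WT, NDN, the imprinted growth suppressor necdin, at 71.6 and 25.3 CPM against 0.87 and 0 CPM, and AMOTL1, an angiomotin of the Hippo pathway, at 21.9 and 10.3 CPM against 0.95 and 0.66 CPM. Together with GATM, which makes the precursor of creatine and was at 10.3 and 11.4 CPM against 0.87 and 0.45 CPM, these were the 4 genes under 1 CPM in both WT libraries and at 10 CPM or more in both Y537S libraries. No gene met the opposite rule. Ratios of summed reads were 202 for TMTC1 (95% exact interval 110 to 422), 104 for NDN (73.3 to 152), 19.5 for AMOTL1 (14.9 to 25.9) and 16.1 for GATM (12.0 to 22.1), intervals that cover counting error only. The fitted log2 fold change of NDN was 6.74 ± 0.85 and ran from 5.79 without WT clone D4 or Y537S clone 1 to 13.84 without WT clone D1, and that of TMTC1 was 7.61 ± 0.60 and ran from 6.88 without WT clone D1 to 8.95 without WT clone D4. AMOTL1 had 4.32 ± 0.43, or 3.67 without Y537S clone 1.

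Other large rises were led by an ion channel and an actin-binding gene. CACNA1H, a T-type calcium channel (chr16:1203106-1271771, hg19), was at 164 and 151 CPM in Y537S and 5.71 and 10.7 CPM in WT (4.27 ± 0.25, adjusted p = 1.2e-04). FLNA, filamin A, which crosslinks actin (chrX:153576892-153603002), was at 2034 and 934 CPM against 175 and 192 CPM (3.02 ± 0.33, adjusted p = 8.4e-04), and at 2.34 without Y537S clone 1. The peroxidasin-like gene PXDNL, also under 1 CPM in both WT libraries, was at 37.2 and 7.38 CPM against 0.43 and 0.60 CPM, with a log2 fold change of 5.44 ± 0.83 that was 3.83 without Y537S clone 1 and 6.18 without clone 2. Clone 1 thus carried more of the PXDNL and FLNA transcripts. LHFP stood at 33.8 and 16.7 CPM against 2.45 and 2.76 CPM (3.28 ± 0.35, or 2.67 without clone 1), CYP2S1, a cytochrome P450, at 16.78 and 13.03 CPM against 1.85 and 3.12 CPM (2.59 ± 0.28), and WDR72 at 8.87 and 35.1 CPM against 3.48 and 3.63 CPM (2.63 ± 0.57, or 3.30 without clone 1 and 1.33 without clone 2). OLFM1 and CXCL12, given above, complete the 12 with GFRA1.

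GFRA1, a receptor of glial-derived neurotrophic factor that signals with RET, had the largest fitted log2 fold change and came from 1 clone. Its level was 226 CPM in Y537S clone 1 and 0.39 CPM in clone 2, against 0.08 and 0.06 CPM in the WT libraries, or 8719, 16, 3 and 2 reads. The log2 fold change of 10.57 ± 2.97 (adjusted p = 0.034) fell to 2.38 without clone 1 (adjusted p = 0.15), and the call was also lost without WT clone D1 or D4 (0.10 in both). The 2 D538G clones held 180 and 216 CPM.

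The largest falls were led by S100A8, a calcium-binding subunit of calprotectin, at 0.96 and 2.32 CPM in Y537S and 33.4 and 19.7 CPM in WT (-4.01 ± 0.41, adjusted p = 6.5e-04, or -4.78 without Y537S clone 2). Its partner S100A9 followed it, at 5.10 and 6.78 CPM against 46.4 and 32.8 CPM (-2.74 ± 0.22). NDRG1, a stress-responsive gene that low oxygen raises, was at 12.3 and 24.4 CPM against 187 and 208 CPM (-3.43 ± 0.27, adjusted p = 2.5e-04). CYP4Z2P, a pseudogene that can share reads with its close relative CYP4Z1, was at 14.8 and 17.0 CPM against 147 and 123 CPM (-3.09 ± 0.13, adjusted p = 9.1e-05). CD36, which takes up fatty acids, was at 2.64 and 1.76 CPM against 19.5 and 14.9 CPM (-2.97 ± 0.26), and DTX4, a ubiquitin ligase of Notch signaling, at 2.33 and 4.12 CPM against 22.8 and 27.1 CPM (-2.94 ± 0.26). In these genes the lower of the WT libraries was several times above the higher of the mutant libraries. The cold-sensing channel TRPM8, the deacetylase HDAC9, the efflux pump ABCC3 and ZNF812 had log2 fold changes of -2.91, -2.79, -2.64 and -2.54, with SEs of 0.23 to 0.28, and ABCC3 was at -3.23 without Y537S clone 2. NLGN4X, a synaptic adhesion gene, differed between the mutant clones, at 2.64 and 24.3 CPM against 94.1 and 87.5 CPM, so that its -2.75 ± 0.74 (adjusted p = 0.03) became -1.91 without clone 1 and -5.09 without clone 2. Its call was lost without WT clone D1 or D4 (0.058 and 0.052) and by DESeq2 (0.098).

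**Figure D3:**
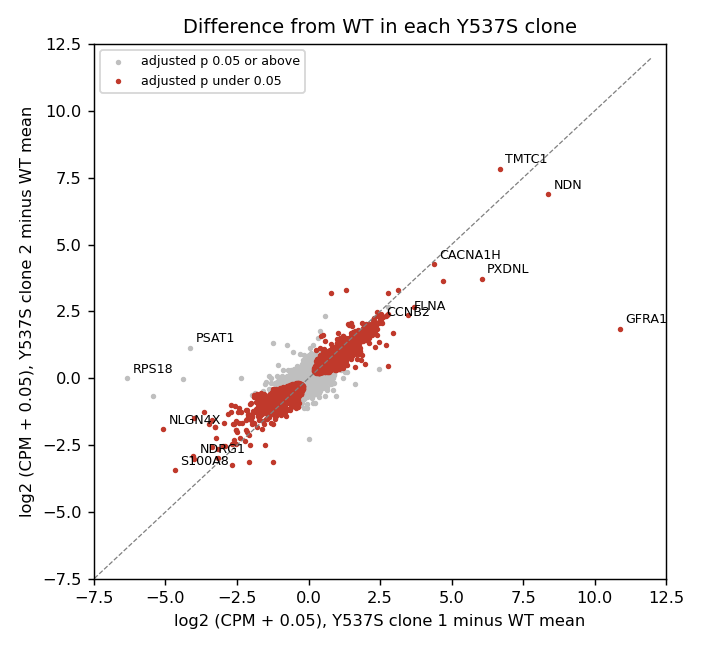
Difference from the WT mean in log2 (CPM + 0.05) for genes whose mean reached 3 log2 CPM, in Y537S clone 1 (horizontal) and clone 2 (vertical), with called genes in red and a dashed line of equality. Most called genes lie along the line, GFRA1 lies far to the right of it, and PSAT1 and RPS18 lie to the left.

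The mutant clones were less alike than the WT clones. Among 10160 genes whose mean reached 3 log2 CPM, 97 differed by more than 1 on the log2 scale between Y537S clones and 15 between WT clones, and the median size of the difference was 0.13 and 0.09. After GFRA1, the largest Y537S differences were in RPS18 and PSAT1. RPS18, a ribosomal protein gene with many near-identical copies whose reads are uncertain, was at 0.75 CPM in clone 1 and 65.6 CPM in clone 2. PSAT1, an enzyme of serine synthesis, was at 1.58 CPM in clone 1 and 63.0 CPM in clone 2, against 26.6 and 30.5 CPM in WT, and its log2 fold change was 0.17 ± 1.08. Without clone 1 that value was 1.14 and without clone 2 it was -4.16. In WT cells the widest differences were in TPTEP1, at 0.38 CPM in D1 and 20.6 CPM in D4, in NDN, given above, and in C6orf48, at 3.04 and 31.9 CPM.

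Host genes of miRNAs formed a further group, since the study asks about miRNAs that differ in mutant cells. Of 13 tested hosts, 4 were higher (30.8%) and 3 lower (23.1%), beside 16.3% and 12.7% of all genes. SMC4, a condensin subunit that hosts miR-15b, was at 658 and 606 CPM in Y537S and 235 and 224 CPM in WT (1.46 ± 0.084, adjusted p = 1.1e-04). MCM7, a replication helicase subunit, was at 197 and 172 CPM against 79.1 and 86.0 CPM (1.16 ± 0.098, adjusted p = 3.1e-04), and SKA2, of the spindle, at 164 and 148 CPM against 93.0 and 96.0 CPM (0.73 ± 0.085). These 3 hosts are themselves cell cycle genes. CALCR, named after its values were seen, was at 0.93 and 1.33 CPM against 0.22 and 0.33 CPM (adjusted p = 0.028, and 0.075 to 0.21 without a WT clone or without Y537S clone 2). The lower hosts were SREBF1 (-0.42 ± 0.077), LRP1 (-0.55 ± 0.13) and VEZT (-0.26 ± 0.073), whose calls were lost without WT clone D1 or D4, with adjusted p from 0.057 to 0.22.

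The 4 miRNAs that the study altered by mimic or inhibitor are shown with the seed, bases 2 to 8, in capitals, because the seed was matched to the 3′ UTRs of the tested genes. No 2 of them share a seed. Sequences are from RefSeq (GRCh38.p14).
hsa-miR-301b-3p: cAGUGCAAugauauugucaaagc
hsa-miR-331-3p: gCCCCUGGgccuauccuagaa
hsa-miR-181c-5p: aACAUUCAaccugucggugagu
hsa-let-7f-5p: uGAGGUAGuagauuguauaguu

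Genes whose 3′ UTR holds a 7-base match to a seed were set beside those without. For miR-301b, 2131 genes with a match had a median log2 fold change of 0.01 and 11126 without had 0.03. For miR-331 the medians were 0.02 (2047 genes) and 0.03 (11210), and for miR-181c 0.02 (2820) and 0.03 (10437). For let-7f they were -0.01 (1443) and 0.03 (11814). Shares called were 17.6% to 18.8% higher and 13.3% to 14.5% lower among genes with a match against 18% to 18.2% and 12.7% to 12.9% without. These medians and shares are a description, without a test.

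The same genotypes were also compared in libraries that took no part in the fit above, from the same clones given the miR-301b or the miR-331 mimic. There, Y537S and WT differed in 3140 of 15406 genes (20.4%) and in 7477 of 15079 genes (49.6%). Without WT clone D1 or D4 these numbers were 995 and 1169 under miR-301b and 4264 and 4282 under miR-331, and the shares below rest on the fits of all 4 libraries. Of the 2464 genes higher under the control mimic, 1608 (65.3%) were called higher under miR-301b, 1948 (79.1%) under miR-331 and 1434 (58.2%) under both. Of the 1914 lower genes, 1070 (55.9%), 1422 (74.3%) and 941 (49.2%) were called lower again. Calls in the opposite direction numbered 0 under miR-301b and 22 and 10 under miR-331. The mitosis median was 1.62 under miR-301b and 1.91 under miR-331, and the replication median 1.05 and 1.36, while that of all genes was near 0 in each. CENPE, at 1.77 under the control mimic, was at 1.61 and at 0.43 (adjusted p = 0.096) under these mimics, and PGR, at 0.41, was at 0.15 and 0.19 and passed in neither (adjusted p = 0.33 and 0.28). Whether the genotype difference itself changed with the mimic was not tested.

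**Figure D4:**
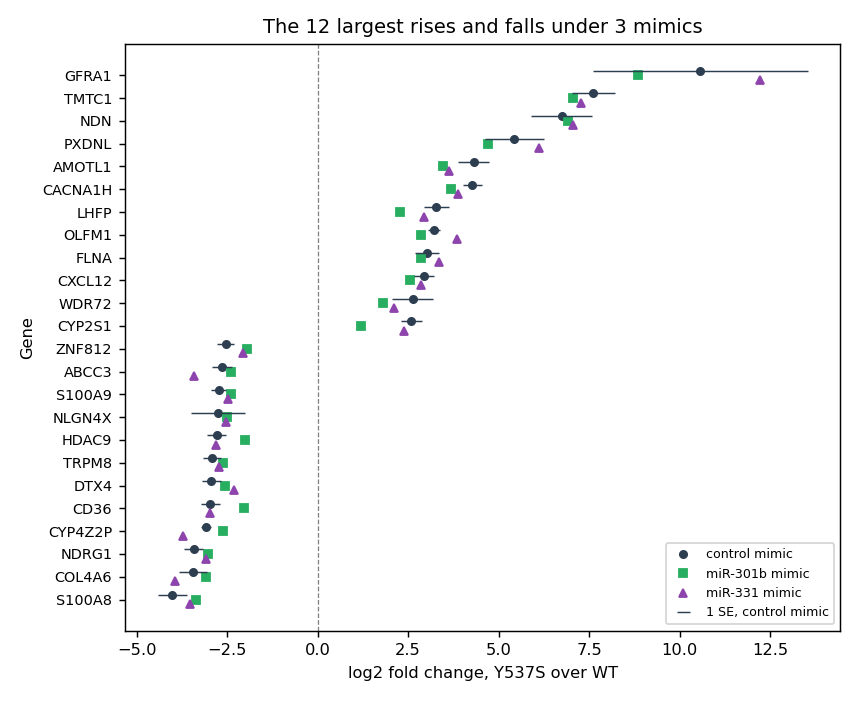
log2 fold changes (Y537S over WT) of the 12 largest rises and 12 largest falls under the control mimic (circles, bars of 1 SE), the miR-301b mimic (squares) and the miR-331 mimic (triangles). All 24 genes keep their side of 0 under each mimic.

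Y537S was then set against the other mutation, D538G, in clones A5 and C2 given the same control mimic, a test that leaves the WT libraries out. It called 925 of 14935 genes (6.19%), 587 higher and 338 lower in Y537S. That number rests on single libraries, at 215 without D538G clone A5, 356 without C2, 1780 without Y537S clone 1 and 1629 without clone 2. By their medians cell cycle genes leaned to Y537S: the median difference was 0.37 for the mitosis list and 0.22 for the replication list beside 0.01 over all genes. Few members were called: 4 of 50 and 5 of 42 were higher and none lower, beside 587 higher and 338 lower of all 14935 genes. CDK1 was at 225 and 246 CPM in D538G and 0.44 lower there than in Y537S on the log2 scale (adjusted p = 0.032), and KIF14, at 62.9 and 76.5 CPM, was 0.56 lower (adjusted p = 0.033). Interferon-stimulated genes had a median difference of 0.60, with 9 of 44 higher in Y537S and none lower, beside the same numbers over all genes. OAS3 was at 92.7 and 110 CPM in D538G (difference 0.89, adjusted p = 0.012). PGR was at 815 and 868 CPM in D538G (0.68, adjusted p = 0.0071), and TFF3 at 6.83 and 8.26 CPM beside 28.4 and 22.9 CPM in Y537S (1.77, adjusted p = 0.0041). CLDN1 separated the mutations in the other direction, at 3300 and 2945 CPM in D538G (-1.36, adjusted p = 0.0038). Differences between the mutations also went with position. Over all tested genes the median was 0.29 on chromosome 12, 0.49 on chromosome 14 and -0.66 in chr13:110000001-120000000 (hg19). Whether single genes of these regions differed beyond such shifts was not tested.

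Among the largest changes, 6 differed most from D538G. COL4A6 was at 21.1 and 16.6 CPM in D538G and 2.20 and 4.83 CPM in Y537S (-2.42, adjusted p = 0.012), and HDAC9 at 10.9 and 10.1 CPM beside 2.59 and 3.55 CPM (-1.77, adjusted p = 0.0099). OLFM1 was at 61.2 and 59.7 CPM in D538G and so between WT and Y537S (1.36, adjusted p = 0.0029). NLGN4X (-1.58), FLNA (1.30) and PXDNL (-1.24) did not pass, with adjusted p of 0.25, 0.058 and 0.28. Log2 fold changes against the same WT libraries stood side by side at 1.79 in Y537S and 1.35 in D538G for CDK1, 4.27 and 4.10 for CACNA1H, -3.43 and -2.99 for NDRG1 and 0.88 and 1.04 for ESR1. Both comparisons share those WT libraries.

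Position in the genome went along with direction. On chromosome 15, 227 of 493 tested genes were higher and 14 lower in Y537S, and the median log2 fold change was 0.46, at 0.53 in clone 1 and 0.39 in clone 2. On chromosome 9, 185 of 593 were higher and 30 lower, with a median of 0.24, and here clone 1 stood at 0.33 and clone 2 at 0.15. Medians of the other 21 chromosomes lay between -0.08 and 0.07, and the WT clones differed by -0.06 to 0.05 on every chromosome. In windows of 10 Mb with at least 15 genes, the median was 0.3 or more in size in 20 of 276 windows, 16 of them higher. Of those 16, 8 were on chromosome 15, 5 on chromosome 9 and 2 at the end of the X chromosome, and between the WT clones no window reached that size.

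The last window of X, chrX:150000001-160000000 (hg19, band Xq28), had the widest shift. Of 66 genes tested there 49 were higher and 2 lower, with a median log2 fold change of 1.20, and of the 40 whose mean reached 3 log2 CPM, 37 were higher. The median was 1.16 in clone 1 and 1.10 in clone 2. The rise covered genes of unrelated function: HMGB3, a chromatin protein, was at 330.6 and 297.3 CPM in Y537S and 113 and 114 CPM in WT (1.47 ± 0.086). IRAK1, a kinase of innate immune signaling, was at 185 and 149 CPM against 45.9 and 52.4 CPM (1.77 ± 0.13), and DKC1, of telomerase and ribosomal RNA modification, at 140 and 137 CPM against 46.3 and 50.9 CPM (1.51 ± 0.087). FLNA lies in the same window. The 2 lower genes were L1CAM, a neural adhesion molecule, at 85.9 and 96.7 CPM against 168 and 178 CPM (-0.92 ± 0.086), and SRPK3 (-0.72 ± 0.22), whose call was lost without Y537S clone 1 and without either WT clone, and by DESeq2 (0.062 to 0.26). These genes were chosen after their values were seen.

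The Xq28 window also stood apart from D538G in the direct test: 41 of 64 genes of the window were higher in Y537S than in D538G and none lower, with a median difference of 1.02, against 6.19% of all genes called. In D538G clones A5 and C2 the window stood at 0.20 and 0.16 above WT, and chromosome 15 at 0.52 and 0.55. Chromosomes 12 and 14 were lower than WT in those clones, at -0.333 and -0.325 and at -0.483 and -0.512. Under both mimics, 45 of the 49 higher Xq28 genes and 159 of the 227 higher genes of chromosome 15 were called higher again. Chromosomes 9 and 15 and this window held 461 of the 2464 higher genes (18.7%) and 46 of the 1914 lower ones. Outside them 2003 genes were higher and 1868 lower of 13954. DNA copy number was not measured, and its part in these shifts was not tested. The cell cycle lists did not rest on these regions: outside them all 44 remaining mitosis genes and all 41 replication genes were higher, with medians of 1.80 and 1.17.

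**Figure D5:**
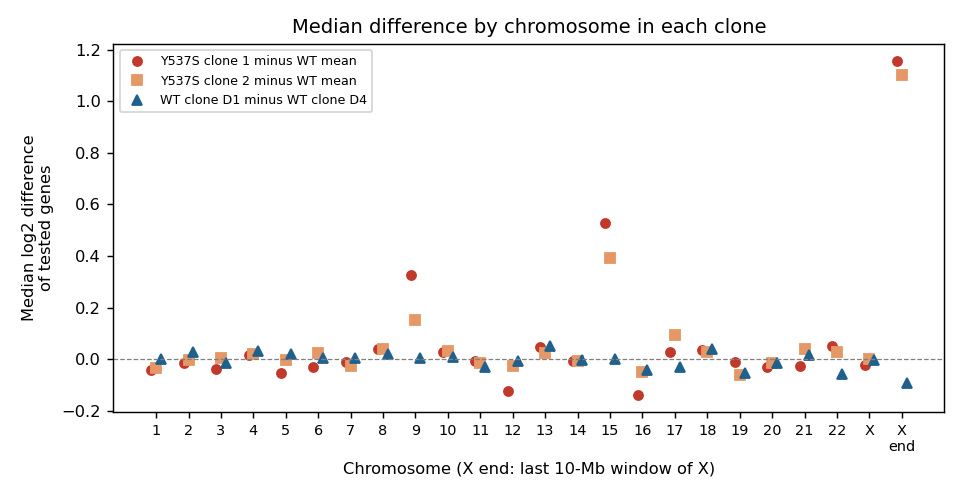
Median log2 difference of the tested genes of each chromosome, and of the last 10-Mb window of X, for Y537S clone 1 and clone 2 against the WT mean and for WT clone D1 against D4, with no error bars. Chromosome 15, chromosome 9 and the end of X stand above 0 in both Y537S clones, the last at 1.16 and 1.10, while the WT difference stays near 0 throughout.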

How the data were processed

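Poly-A RNA-seq libraries of T-47D clones were analysed from the tables of raw counts per gene. Per the study's methods and the labels, the authors used HISAT2 for alignment to hg19 and featureCounts of Subread for counting over UCSC Known Genes, and deposited the counts without normalization; tool versions and the strand setting are not given in the sources used here. Some labels transpose the digits of Y537S, and the titles were followed. WT columns name clones D1 and D4, which were assigned to the genotype and not to a numbered label.

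Counts were tested with edgeR 4.0.16 (R 4.3.3): filterByExpr, TMM factors (0.985 to 1.009 in the 4 libraries), the quasi-likelihood F test and Benjamini-Hochberg adjustment over all tested genes, with only the compared groups in a fit and no block. SEs are the log2 fold change divided by the root of F. CPM values share TMM factors over the 6 control-mimic libraries of the 3 genotypes; clone values are log2 CPM with a prior count of 2. In counts simulated for Y537S against WT (14892 genes), 76 of 100 genes changed by 1 on the log2 scale and 98 of 100 changed by 2 were called, as were 14 unchanged genes. The changed genes were well covered and balanced up and down, and no chromosome region was shifted. The data hold far more changed genes, so these rates check the code and do not carry over to the calls. Of the genes in the tables, 22494 matched a symbol of GENCODE 44 (GRCh37), 1358 matched through a former symbol and 2512 had no match, leaving 14533 tested genes placed on a chromosome.

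Named genes were those the study names for RNA-seq, the 12 largest rises and falls at a mean of at least 3 log2 CPM without overlap, up to 3 called members a list and direction by p, genes under 1 and at least 10 CPM, and the 3 widest clone differences a genotype; 33 others were added after their values were seen. A few genes that the rule names are not reported here. The comparison, genes and lists were chosen with earlier results of these data known. Alternatives were DESeq2 1.42.0, its size factors, no low-count filter, all 24 libraries in 1 fit, a correction for GC content (lowess, span 0.3) and leaving out each library. Confidence intervals are 95%. P-values test the genotype difference against the spread between libraries of a genotype, pooled across genes. With 1 library a clone, that spread mixes clone, culture and library.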

Additional observations from a re-analysis of the deposited data

Results flagged for a closer look

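Each of the following differed between the mutations, by edgeR's quasi-likelihood test of Y537S against D538G in the control-mimic libraries. In all, 925 genes did so. Values are log2 differences, Y537S minus D538G, of the genes chosen for naming. Some of these genes lie on chromosomes that differed as wholes between the mutant clones. The median over tested genes was 0.29 on chromosome 12, which holds CDK2 for one, and 0.49 on chromosome 14. Whether a gene differed beyond such a shift was not tested.

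Among cell cycle genes they were 0.44 for CDK1, 0.45 for CDK2, 0.65 for CENPE, 0.72 for E2F7 and 0.56 for KIF14. Among estrogen-induced and hormone receptor genes they were 0.45 for GREB1, 0.62 for MYBL1, 1.36 for OLFM1, 0.68 for PGR, -0.99 for RHOBTB3 and 1.77 for TFF3. Receptor kinases held -0.55 for ERBB2, 0.56 for ERBB4 and 0.64 for FGFR3. Adhesion and junction genes held -1.36 for CLDN1, -0.73 for COL4A5, -2.42 for COL4A6, 0.41 for DSG2 and 0.33 for PXN. Interferon-stimulated genes held 1.18 for IFITM2 and 0.89 for OAS3. Genes of the Xq28 window held 0.93 for DKC1, 1.27 for HMGB3, 1.15 for IRAK1 and 1.64 for L1CAM. The miRNA hosts held -1.71 for CALCR, 1.48 for LRP1, -0.46 for SREBF1 and 0.58 for VEZT, and other large falls held -0.84 for CYP4Z2P, -1.77 for HDAC9 and -0.92 for S100A9.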

How the results depend on the processing

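No paired analysis was possible because the WT and D538G columns carry clone names that match no replicate number in the labels, so the planned replicate block and its GC version were not run. Clones of different genotypes are also different clonal lines, so a shared replicate number would not make them a pair. Separate fits of Y537S against WT gave totals beside the 4378 genes called: DESeq2 called 4489, its size factors 4369, no filter 5330, all 24 libraries in 1 fit 5275, the GC correction 4643, and 3871 of the 4378 lay outside chromosomes 9 and 15 and the last window of X, an exclusion chosen after seeing the data. Leaving out 1 library gave 1887 to 6122. With the fold limit, 1390 genes became 936 to 1966. Under the miR-301b mimic the range was 995 to 4490, under the miR-331 mimic 4264 to 9642, for D538G against WT 4030 to 5690, and for Y537S against D538G 215 to 1780, with 1588 by DESeq2 and 1991 without the filter. With 1 library left in a genotype, that library is assumed to vary like the other pair. Higher and lower estrogen-induced members ranged from 15 to 27 and from 4 to 10, G1 regulators lower from 2 to 5, with 4 in the fit of all libraries and 1 outside the regions. PSAT1 reversed to -4.16 without Y537S clone 2 and was at 1.14 without clone 1, from the clone difference shown in the report. Of 128 genes chosen for naming, 124 kept their direction and their side of the threshold under DESeq2, 128 under its size factors, 127 under the GC correction, 127 without the filter, 121 in the fit of all libraries, 101 without WT clone D1, 102 without D4, 124 without Y537S clone 1 and 122 without clone 2. Share of calls that were higher moved from 56.3% to between 50.9% and 62.7%. Seed-match differences moved by less than 0.05 in all alternatives run. The differences themselves, for the 7-base matches, ran only from -0.044 to -0.003, so a move of that size could remove or reverse them. TFF1, with few WT reads, had log2 fold changes of 3.71 to 9.46 when 1 library was left out. Beyond PSAT1, the cause of these changes was not tested.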

Other observations

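Groups of genes listed after the calls were known, and therefore given as counts without a test, showed a few more regularities. Genes that low oxygen raises were mostly lower in Y537S: of 25 tested, 13 were lower and 2 higher, with a median log2 fold change of -0.44, beside 12.7% lower and 16.3% higher over all genes tested, the shares against which each count below also stands. DDIT4, an inhibitor of mTOR signaling, was at 15.9 and 22.0 CPM in Y537S and 86.6 and 93.4 CPM in WT (-2.25 ± 0.16), VEGFA, the angiogenic factor, at 27.03 and 38.5 CPM against 79.5 and 81.7 CPM (-1.30 ± 0.16), and HK2, a hexokinase, at 31.4 and 34.7 CPM against 64.6 and 77.2 CPM (-1.10 ± 0.12). ADM and CA12 were the higher members, at 1.09 ± 0.21 and 0.59 ± 0.14. CA12 is also an estrogen-induced gene and lies on chromosome 15, where the median of all tested genes was 0.46. The median of the list was -0.31 under the miR-301b mimic and -0.39 under the miR-331 mimic.

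Chaperones were listed for the endoplasmic reticulum and, separately, for the cytosol and mitochondria. In the endoplasmic reticulum 11 of 21 genes were lower and none higher (median -0.26), among them HSP90B1 at 1313 and 1508 CPM against 2352 and 2100 CPM (-0.66 ± 0.10) and HSPA5 at 1165 and 1092 CPM against 1633 and 1533 CPM (-0.49 ± 0.084). In the cytosol and mitochondria 10 of 22 were higher and none lower (median 0.30), with the mitochondrial HSPD1 at 464 and 497 CPM against 287.6 and 301.5 CPM (0.71 ± 0.077) and CCT5, of the chaperonin ring, at 462 and 439 CPM against 266 and 288 CPM (0.70 ± 0.080). Under the miR-331 mimic the endoplasmic reticulum median was -0.04. Genes of chromatin assembly and repression were higher in 17 of 20 cases (median 0.75), with the maintenance methyltransferase DNMT1 at 217 and 223 CPM against 115 and 120 CPM (0.91 ± 0.074) and the Polycomb methyltransferase EZH2 at 80.9 and 71.4 CPM against 34.9 and 34.4 CPM (1.14 ± 0.10). Of 21 genes of the amino acid stress response 8 were higher and 1 lower, with a median of 0.18 that was 0.10 in clone 1 and 0.44 in clone 2. Of 22 genes of cholesterol synthesis 3 were higher and 3 lower (median 0.02), and only this list was close to the shares of all genes.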
